A study of Homo sapiens with 9 samples.

Results

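The 42 genes described here encode chaperones, folding enzymes, degradation factors and stress sensors of the endoplasmic reticulum (ER), the compartment where secreted and membrane proteins fold. They were taken by symbol from a list of ER chaperone and unfolded protein response genes, by a rule that uses no measured level, although the list itself was drawn up with earlier results of these data known, and are 42 of the 60612 genes in the table. RNA came from MDA-MB-231, an established human cell line of triple-negative breast cancer, 48 hours after Lipofectamine transfection with MILIP siRNA2, MILIP siRNA1 or a negative control siRNA, with 3 libraries per group and 9 in all. MILIP is a long noncoding RNA, and each siRNA against control asks which transcripts change when it is depleted. The treatment text names the target of both siRNAs as PLANE, another long noncoding RNA, where the series title and the treatment labels name MILIP. MILIP, listed as MAFG-DT, had 0.28, 0.51 and 0.18 FPKM with siRNA2, 0.64, 0.33 and 1.01 FPKM with siRNA1, and 4.33, 4.35 and 4.53 FPKM with control siRNA, so every siRNA library lay below every control library (log2 fold change -3.73, SE 0.287, adjusted p = 5.34e-11 with siRNA2, against -2.74, SE 0.256, adjusted p = 2.51e-09 with siRNA1). FPKM scales a count by the exonic length of the gene and the total of the library. That length, 21873 bases for DNAJC10, may exceed the transcript that is expressed, so levels compare only roughly between genes.

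Depth ran from 15281220 to 19759371 counts per library. Of the 42 genes, 41 passed the filter on low counts among 15345 tested genes. DERL3, a factor of protein export from the ER, did not pass, at 0 to 6 counts per library, and it overlaps SMARCB1 on the opposite strand. Of the line's defining markers, vimentin (VIM) was at 760 to 946 FPKM and CD44 at 62.7 to 94.1 FPKM, and the hormone receptor genes ESR1 and PGR were at or below 0.07 FPKM. ERBB2 was at 4.94 to 7.39 FPKM, and the epithelial genes EPCAM and CDH1 were at or below 2.88 and 0.38 FPKM. Of 6 markers of leukocytes, endothelium and red cells, CD3E and HBB were at 0 in all libraries, and the highest value of any was 1.12 FPKM (PECAM1 with siRNA2). No label states that libraries of 1 group are separate cultures. The p-values therefore measure library-to-library spread, which may be technical. In bulk RNA, fewer cells with a transcript and less of it per cell cannot be told apart.

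Unfolded protein in the ER is sensed by IRE1 (gene ERN1), PERK (gene EIF2AK3) and ATF6. IRE1 cuts XBP1 mRNA so that it can be spliced into the form for an active transcription factor, PERK phosphorylates a translation initiation factor and slows protein synthesis, and ATF6 is carried to the Golgi and cleaved into a transcription factor. XBP1 and ATF6 raise the transcription of chaperones and of the machinery of ER-associated degradation (ERAD), which carries misfolded proteins out of the ER to the proteasome. Gene counts show neither XBP1 splicing nor the cleavage or phosphorylation of a sensor.

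The promoter elements through which this response is known to act stand in the following windows, shown because the genes that carry them include BiP, calreticulin and others whose levels are described next. The ER stress response element ERSE was searched as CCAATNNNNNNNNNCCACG and ERSE-II as ATTGGNCCACG, on both strands, from 250 bases before to 50 bases after the RefSeq start sites (GRCh38.p14). An exact ERSE stood in 8 of the 38 ER genes that have a window (46 windows) and in 25 of 27305 genes in all (0.0916%). ERSE-II stood in 3 of the 38 and in 19 genes in all (0.0696%). The core of the unfolded protein response element UPRE, TGACGTG, stood in 5 of the 38 (DNAJC10, HYOU1, SEC61A1, TXNDC11 and TXNDC5) and in 654 genes in all (2.4%), and in HYOU1 it overlapped an ERSE-II. DERL1, DERL3, FKBP14 and PDIA3 were not matched. The list holds known genes of this response, so a share above that of all genes was in part set by that choice. A match describes the letters in a window and is not a measured binding site.

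The 250 bases before the start site of HSPA5, the gene of the chaperone BiP, are printed whole in the direction of the gene, with the fixed letters of the ERSE in capitals.
HSPA5 promoter, chr9:125241344-125241593, minus strand: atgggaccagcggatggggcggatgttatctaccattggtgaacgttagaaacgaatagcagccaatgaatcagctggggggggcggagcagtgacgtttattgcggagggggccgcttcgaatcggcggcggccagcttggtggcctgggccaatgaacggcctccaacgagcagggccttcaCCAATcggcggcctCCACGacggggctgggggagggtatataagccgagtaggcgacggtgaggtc

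Each of the other elements is printed in the direction of its gene with 5 bases on either side and its fixed letters in capitals. An element that reads CGTGG before ATTGG or CCAAT lies on the opposite strand. The CANX element falls in 3 windows of different start sites and is printed once, and the CRELD2 element also lies in a window of ALG12.
HSP90B1 ERSE, chr12:103930211-103930239, plus strand: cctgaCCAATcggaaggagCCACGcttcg
HSP90B1 ERSE, chr12:103930316-103930344, plus strand: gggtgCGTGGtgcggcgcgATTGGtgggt
CALR ERSE, chr19:12938379-12938407, plus strand: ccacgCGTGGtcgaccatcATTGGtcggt
CANX ERSE, chr5:179698773-179698801, plus strand: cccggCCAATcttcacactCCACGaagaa
CRELD2 ERSE, chr22:49918549-49918577, plus strand: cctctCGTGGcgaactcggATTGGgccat
ERO1B ERSE, chr1:236282178-236282206, minus strand: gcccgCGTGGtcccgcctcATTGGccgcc
PDIA6 ERSE, chr2:10812848-10812876, minus strand: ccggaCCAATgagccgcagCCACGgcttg
XBP1 ERSE, chr22:28800598-28800626, minus strand: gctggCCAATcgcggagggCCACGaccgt
HERPUD1 ERSE-II, chr16:56932020-56932040, plus strand: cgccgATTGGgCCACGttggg
HYOU1 ERSE-II, chr11:119057375-119057395, minus strand: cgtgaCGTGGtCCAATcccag
HYOU1 ERSE-II, chr11:119057269-119057289, minus strand: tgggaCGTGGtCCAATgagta
SDF2L1 ERSE-II, chr22:21642109-21642129, plus strand: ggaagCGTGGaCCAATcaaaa

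In control cells the 42 genes covered a wide range of levels per length. Calreticulin (CALR) was the highest at 427 ± 15.8 FPKM, followed by BiP (HSPA5) at 204 ± 1.61 FPKM, calnexin (CANX) at 200.5 ± 11 FPKM and GRP94 (HSP90B1) at 172 ± 8.92 FPKM (SD, n = 3). BiP and calnexin did not differ beyond their spread. The disulfide isomerase P4HB and the translocon pore SEC61A1 were the other genes at 100 FPKM or above, 18 genes lay from 10 to 100 FPKM and 16 from 1 to 10 FPKM. ERO1B and DERL3 were below 1 FPKM. The 42 genes together made up 1.06% ± 0.0208 of the summed FPKM of a library with siRNA2, 0.684% ± 0.00764 with siRNA1 and 0.682% ± 0.0125 with control siRNA (SD, n = 3 each). The siRNA2 libraries, at 1.04% to 1.08%, lay above the other 6, while the siRNA1 libraries (0.677% to 0.692%) and the control libraries (0.673% to 0.696%) overlapped. As plain sums the 42 genes had 2985 to 3142 FPKM with siRNA2, 2085 to 2096 with siRNA1 and 1957 to 2033 with control siRNA. On that scale the siRNA1 and control libraries did not overlap. CALR and HSPA5 weigh most in these sums. Their mean FPKM were 837 and 464 with siRNA2, 483.5 and 288 with siRNA1, and 427 and 204 with control siRNA. The level total with siRNA1 also held genes that fell, such as SEC61A1, at 58.4 FPKM against 113 FPKM with control siRNA.

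**Figure D1:**
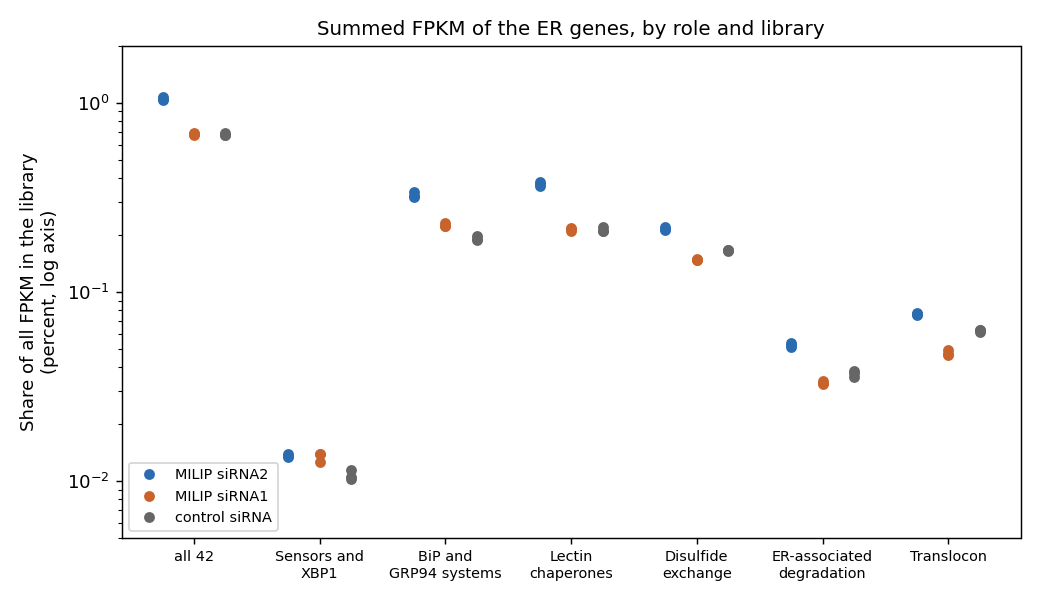
Summed FPKM of the ER genes as a percentage of all FPKM in a library (log axis), for all 42 genes and for 6 groups by role, with 1 point per library and siRNA2, siRNA1 and control siRNA from left to right in each group. The siRNA2 libraries are highest for all 42 genes (1.04% to 1.08%) and for the lectin chaperones (0.365% to 0.379%), and the siRNA1 libraries are lowest for the translocon genes (0.0465% to 0.0494%).

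With siRNA2, 32 of the 41 tested ER genes rose, 4 fell and 5 did not pass the test. Those 32 are 78.0% of the ER genes, where 27.2% of all tested genes rose, and the 4 that fell are 9.76%, where 28.9% of all tested genes fell (56.1% called in either direction). The median log2 fold change was 0.38 over the ER genes and -0.01 over all tested genes. The genes that fell were EIF2AK3, DNAJC3, TXNDC5 and ERN1. In each of the 36 called ER genes the siRNA2 libraries all lay on 1 side of the control libraries, as they did in 96.1% of all called genes and 61.8% of all tested genes, so this count is near that of called genes in general.

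With siRNA1, 13 of the 41 ER genes rose, 16 fell and 12 did not pass. The 13 are 31.7% of the ER genes against 25.1% of all tested genes, and the 16 are 39.0% against 25.3% (50.4% called in either direction). Throughout, the shares of all tested genes are not matched to the ER genes by level. The median was -0.06 over the ER genes and 0.00 over all tested genes (0.003), and ER genes were called in both directions. The groups did not overlap in 26 of the 29 called ER genes (89.7%, against 92.3% of all called and 53.8% of all tested genes), and overlapped in SDF2L1, ERO1B and SEL1L. Without control replicate 2 the number of ER genes that rose was 8.

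Since both comparisons use the same control libraries, the siRNAs were also set against each other. In siRNA2 cells, 32 of the 41 genes were higher than in siRNA1 cells (78.0%, where 28.4% of all tested genes were higher), 2 were lower (4.88%, where 32.0% were lower; 60.4% called in either direction) and 7 did not pass. The genes lower with siRNA2 were EIF2AK3 and FKBP14. The median log2 difference was 0.49 over the ER genes and -0.03 over all tested genes. SDF2L1 was the 1 called ER gene of 34 whose libraries overlapped between the siRNAs; the other 33 are 97.1%, near the 96.8% without overlap among all called genes (65.5% of all tested genes).

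**Figure D2:**
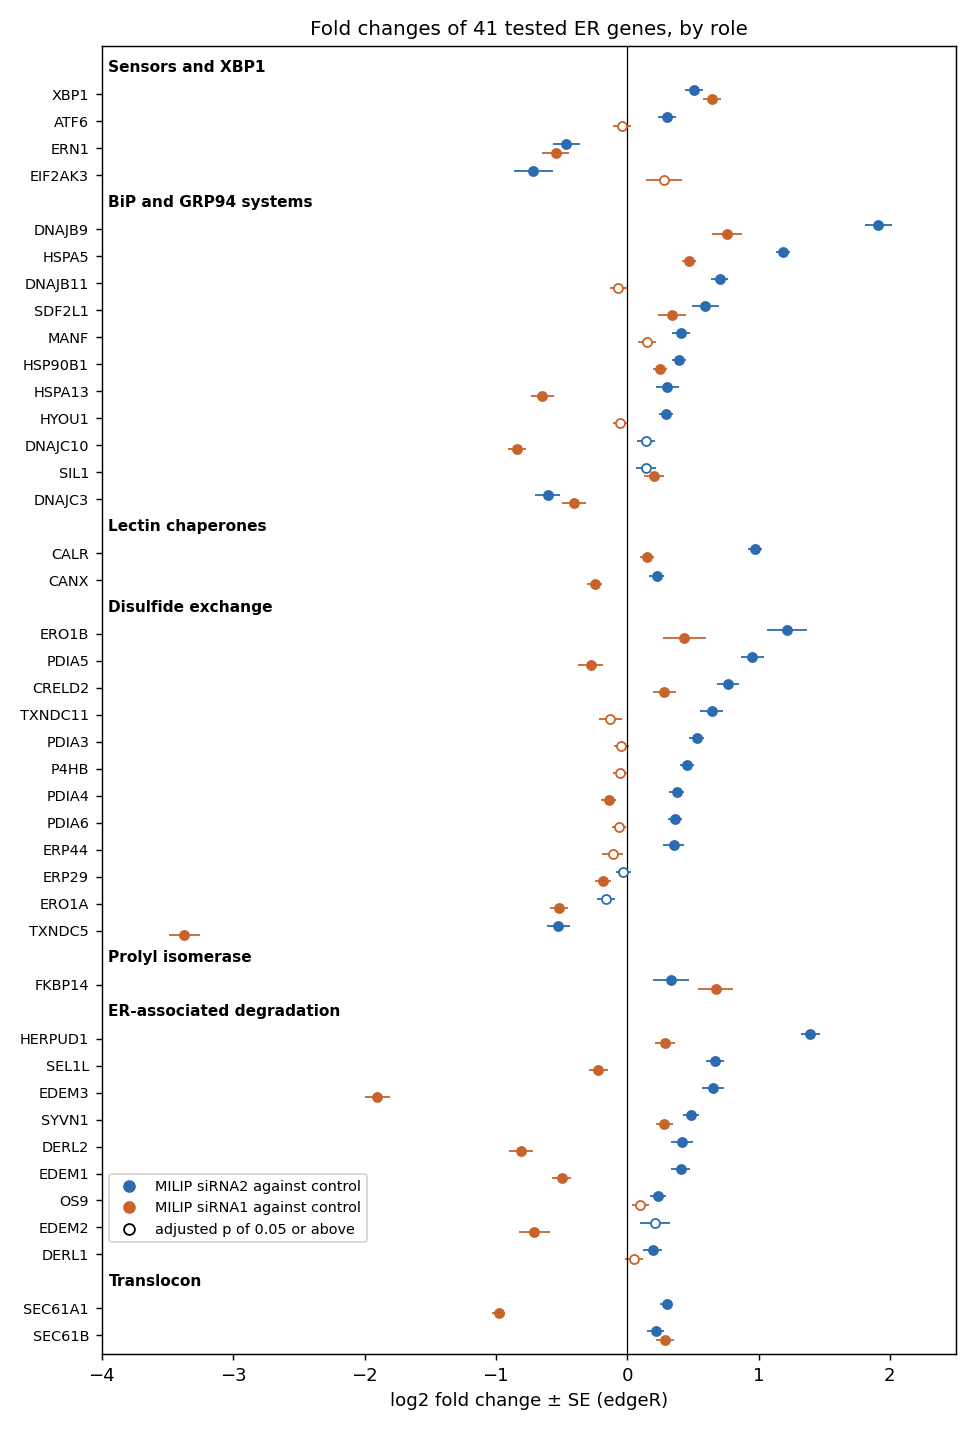
Log2 fold change ± SE (edgeR) of the 41 tested ER genes with siRNA2 (blue, upper marker of each pair) and siRNA1 (orange, lower marker) against the same control libraries, grouped by role. Filled markers passed at an adjusted p below 0.05; with siRNA2 most lie right of 0, from -0.71 for EIF2AK3 to 1.91 for DNAJB9, and with siRNA1 they spread from -3.37 for TXNDC5 to 0.76 for DNAJB9.

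Among the sensors, XBP1 rose with each siRNA, ERN1 fell with each, ATF6 rose with siRNA2 and EIF2AK3 fell with siRNA2. XBP1, the transcription factor downstream of IRE1, had 24.4, 24.8 and 23.6 FPKM with siRNA2, 26.5, 26.6 and 28.3 FPKM with siRNA1, and 18.1, 15.6 and 17.4 FPKM with control siRNA. All 6 siRNA libraries lay above the 3 control libraries, with log2 fold changes of 0.51 (SE 0.07, adjusted p = 1.11e-06) with siRNA2 and 0.64 (SE 0.07, adjusted p = 3.54e-08) with siRNA1. The siRNAs themselves did not pass against each other for XBP1 (-0.14, adjusted p = 0.0885). ERN1, which encodes IRE1, the kinase and RNase that cuts XBP1 mRNA, had 2.07, 2.19 and 1.80 FPKM with siRNA2, 1.82, 2.14 and 1.88 FPKM with siRNA1, and 2.98, 3.01 and 2.40 FPKM with control siRNA. Every siRNA library lay below every control library, at -0.46 (SE 0.101, adjusted p = 0.000376) with siRNA2 and -0.55 (SE 0.102, adjusted p = 8.88e-05) with siRNA1. ATF6, the sensor cleaved in the Golgi, had 11.2, 11.8 and 11.7 FPKM with siRNA2, 8.58, 10.2 and 9.18 FPKM with siRNA1, and 9.42, 9.53 and 9.17 FPKM with control siRNA. The siRNA2 libraries lay above all others (0.30, SE 0.066, adjusted p = 0.000387), while the siRNA1 and control libraries overlapped (-0.04, adjusted p = 0.674). EIF2AK3, the gene of PERK, had 1.42, 1.21 and 1.26 FPKM with siRNA2, 2.14, 2.99 and 2.75 FPKM with siRNA1, and 2.38, 2.35 and 1.68 FPKM with control siRNA. It was lowest in the siRNA2 libraries, at -0.71 (SE 0.146, adjusted p = 0.000186) against control and -1.0 (SE 0.142, adjusted p = 1.38e-06) against siRNA1. Its siRNA1 libraries overlapped the control libraries (0.28, adjusted p = 0.089), and the comparison passed with siRNA1 replicate 1 left out (adjusted p = 0.0272).

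BiP, the ER member of the HSP70 family, binds unfolded chains and keeps the sensors inactive until such chains draw it away. Of the 11 genes of BiP, GRP94 and their partners, 8 rose and 1 fell with siRNA2 (72.7% and 9.09%, against 27.2% and 28.9% of all tested genes), and 5 rose and 3 fell with siRNA1 (45.5% and 27.3%, against 25.1% and 25.3%). The share that fell with siRNA1 was thus near that of all genes. HSPA5 had 494, 440.0 and 457 FPKM with siRNA2, 291, 289 and 284 FPKM with siRNA1, and 205, 202 and 204 FPKM with control siRNA. The siRNA2 libraries were highest and the control libraries lowest, with no overlap of the 3 groups, in a gene whose promoter holds the ERSE printed above. BiP mRNA changed by 1.18 (SE 0.053, adjusted p = 2.68e-15) on the log2 scale with siRNA2, by 0.47 (SE 0.053, adjusted p = 5.5e-08) for siRNA1, and by 0.71 (SE 0.053, adjusted p = 1.81e-11) for siRNA2 against siRNA1. DNAJB9, a J-domain partner of BiP also known as ERdj4 that represses IRE1, had the largest rise among the ER genes with each siRNA. Its levels were 14.3, 12.5 and 13.7 FPKM with siRNA2, 5.72, 6.92 and 5.88 FPKM with siRNA1, and 3.62, 3.33 and 3.77 FPKM with control siRNA. The groups again stood apart in the same order, at 1.91 (SE 0.105, adjusted p = 1.05e-13) with siRNA2, 0.76 (SE 0.112, adjusted p = 3.63e-06) for siRNA1, and 1.15 (SE 0.097, adjusted p = 1.92e-10) between the siRNAs.

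Other J-domain proteins, which deliver substrates to BiP and trigger its ATPase, and the HSP70-like HSPA13 moved in several ways. DNAJC3 (P58IPK, also an inhibitor of PERK) had 8.15, 7.29 and 7.69 FPKM with siRNA2, 8.64, 9.75 and 8.65 FPKM with siRNA1, and 14.0, 11.3 and 9.97 FPKM with control siRNA. It fell with both siRNAs, to log2 fold changes of -0.61 (SE 0.093, adjusted p = 4.55e-06) with siRNA2 and -0.41 (SE 0.092, adjusted p = 0.000651) with siRNA1, and no siRNA library reached the lowest control library. DNAJC10 (ERdj5), a reductase that opens disulfides of proteins bound for degradation, had 6.16, 6.23 and 6.62 FPKM with siRNA2, 3.09, 3.67 and 3.03 FPKM with siRNA1, and 6.10, 5.54 and 5.54 FPKM with control siRNA. It fell with siRNA1 (-0.84, SE 0.07, adjusted p = 3.51e-10) and did not pass with siRNA2 (0.15, adjusted p = 0.0733), although every siRNA2 library was above every control library, and it passed without control replicate 1 (adjusted p = 0.0241). HSPA13, found in microsomes, had 20.9, 22.1 and 22.1 FPKM with siRNA2, 9.68, 13.5 and 11 FPKM with siRNA1, and 19.0, 17.2 and 16.3 FPKM with control siRNA. The siRNA2 libraries lay above the control libraries (0.31, SE 0.084, adjusted p = 0.00307) and the siRNA1 libraries below them (-0.65, SE 0.087, adjusted p = 9.68e-07). DNAJB11 (ERdj3), a secreted J-domain partner of BiP, had a log2 fold change of 0.71 (adjusted p = 7.07e-10) with siRNA2 and -0.07 (adjusted p = 0.391) with siRNA1.

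The remaining genes of the BiP and GRP94 systems are given by their fold changes. With siRNA2, log2 fold changes were 0.40 for HSP90B1 (GRP94, the ER member of the HSP90 family), 0.30 for HYOU1 (a nucleotide exchange factor of BiP), 0.60 for SDF2L1 (a partner of the J-domain proteins) and 0.41 for MANF (a BiP-binding, secreted protein), and all 4 passed. SIL1, the other nucleotide exchange factor of BiP, had 0.14 (adjusted p = 0.116) with siRNA2. With siRNA1 the same genes had 0.25 for HSP90B1, 0.34 for SDF2L1 and 0.20 for SIL1, which passed, and -0.06 for HYOU1 and 0.15 for MANF, which did not. SIL1 lost its siRNA1 call without any of control replicates 1, 2 and 3 or siRNA1 replicates 1 and 3 (adjusted p = 0.0553, 0.0945, 0.0512, 0.16 and 0.149), SDF2L1 lost it without control replicates 1 or 2 or siRNA1 replicate 3 (adjusted p = 0.0655, 0.0725 and 0.0821), and MANF gained one without control replicate 3 (adjusted p = 0.0141). Against siRNA1, HSP90B1 was higher with siRNA2 by 0.15 (adjusted p = 0.0188), a call lost without siRNA2 replicate 1 or siRNA1 replicates 1 or 3 (adjusted p = 0.075, 0.0535 and 0.0736), and SDF2L1 by 0.26 (adjusted p = 0.0359), lost without siRNA2 replicates 1 or 2 or siRNA1 replicate 2 (adjusted p = 0.188, 0.0522 and 0.199). SNHG4 overlaps SIL1 on the opposite strand with 52.1% as many counts, and TBCCD1 overlaps DNAJB11 with 17.4%.

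Calreticulin and calnexin are the lectin chaperones that hold monoglucosylated glycoproteins while they fold. Calreticulin, the most abundant of the 42 transcripts per length, had 865, 815 and 831 FPKM with siRNA2, 498, 469 and 483 FPKM with siRNA1, and 423, 414 and 444 FPKM with control siRNA. Its siRNA2 libraries were well above the rest, and its siRNA1 libraries were above control by less (log2 fold change 0.97, SE 0.052, adjusted p = 6.73e-14 with siRNA2 and 0.15, SE 0.052, adjusted p = 0.0163 with siRNA1). The siRNA1 call was lost without control replicates 1 or 2 or siRNA1 replicate 1 (adjusted p = 0.0577, 0.0744 and 0.156). CALR was added to the genes given by library after its values were seen. Calnexin, the membrane-bound counterpart, had 235, 235 and 235 FPKM with siRNA2, 164, 189 and 163 FPKM with siRNA1, and 213, 195 and 193 FPKM with control siRNA. The siRNA2 libraries lay above the control libraries and the siRNA1 libraries below them, at 0.23 (SE 0.056, adjusted p = 0.00134) with siRNA2 and -0.25 (SE 0.056, adjusted p = 0.00068) with siRNA1. The exact ERSE printed above stood in the window of CALR and in 3 of the 4 windows of CANX.

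**Figure D3:**
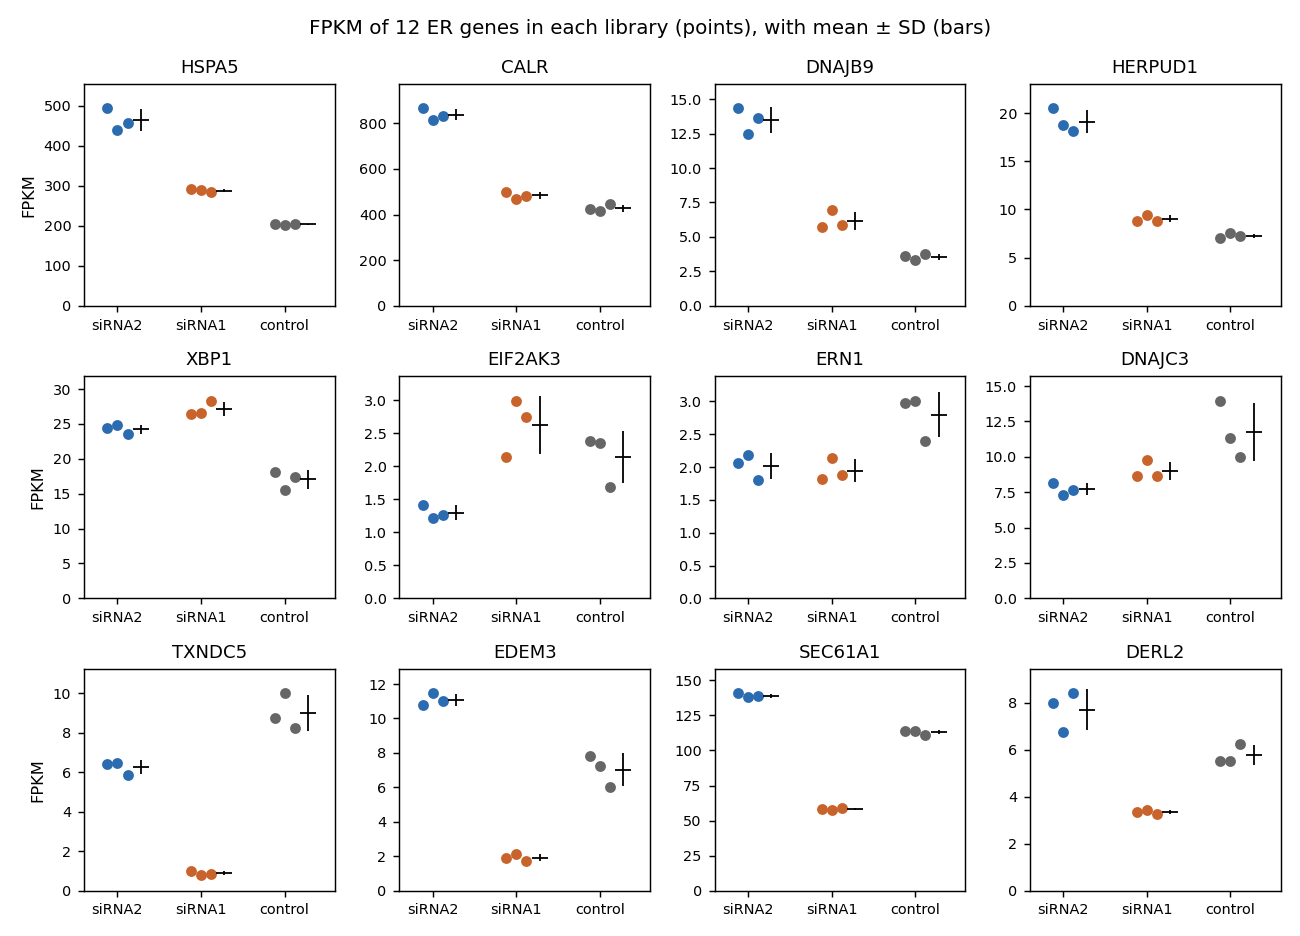
FPKM of 12 ER genes in each library (points), with the mean ± SD of each group (black bars), for siRNA2, siRNA1 and control siRNA from left to right; each panel has its own linear axis from 0. HSPA5, CALR, DNAJB9 and HERPUD1 are highest with siRNA2, TXNDC5, EDEM3, SEC61A1 and DERL2 are lowest with siRNA1, and EIF2AK3 is lowest with siRNA2.

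Disulfide bonds are made and reshuffled in the ER by the protein disulfide isomerase family, which the ERO1 oxidases recharge. Of the 12 genes of this group, 9 rose and 1 fell with siRNA2 (75% and 8.33%, against 27.2% and 28.9% of all tested genes), and 2 rose and 5 fell with siRNA1 (16.7% and 41.7%, against 25.1% and 25.3%). All 12 were higher in siRNA2 than in siRNA1 cells, where 28.4% of all tested genes were higher. TXNDC5 (ERp46), a thioredoxin-domain isomerase, had the largest fall. It had 6.42, 6.49 and 5.85 FPKM with siRNA2, 0.99, 0.81 and 0.86 FPKM with siRNA1, and 8.76, 9.99 and 8.25 FPKM with control siRNA. The siRNA1 libraries, all below 1 FPKM, lay far below the others, and the siRNA2 libraries also lay below the control libraries (log2 fold change -0.52, SE 0.091, adjusted p = 2.73e-05 with siRNA2 and -3.37, SE 0.118, adjusted p = 2.62e-17 with siRNA1). The readthrough gene BLOC1S5-TXNDC5, which overlaps it on the same strand, had 0 counts. Shared reads of overlapping genes cannot be told apart, so this 0 does not show that the readthrough transcript was absent. The counts of TXNDC5 may also leave shared reads out. PDIA5 had 10.5, 9.91 and 9.41 FPKM with siRNA2, 4.6, 3.96 and 4.39 FPKM with siRNA1, and 5.19, 5.15 and 5.09 FPKM with control siRNA. It rose with siRNA2 (0.95, SE 0.087, adjusted p = 1.21e-09) and fell with siRNA1 (-0.28, SE 0.093, adjusted p = 0.0153), a fall that was lost without siRNA1 replicate 2 (adjusted p = 0.0692). SEC22A overlaps PDIA5 on the same strand with 49.3% as many counts. ERO1B, an ERO1 oxidase, had 2.21, 2.03 and 2.20 FPKM with siRNA2, 1.10, 1.63 and 1.08 FPKM with siRNA1, and 1.10, 0.90 and 0.77 FPKM with control siRNA. Its rise with siRNA2 (1.21, SE 0.153, adjusted p = 2.64e-07) separated the groups, while with siRNA1 (0.43, SE 0.164, adjusted p = 0.0302) siRNA1 and control libraries overlapped and the call was lost without control replicates 2 or 3 or siRNA1 replicate 2 (adjusted p = 0.0773, 0.163 and 0.273). GPR137B, which overlaps ERO1B on the opposite strand, had 114% as many counts. PDIA4 (ERp72) had 72.2, 65.7 and 70.3 FPKM with siRNA2, 49.8, 48.4 and 50.2 FPKM with siRNA1, and 54.4, 53.3 and 52.8 FPKM with control siRNA. It was higher than control in every siRNA2 library (0.38, SE 0.057, adjusted p = 4.08e-06) and lower in every siRNA1 library (-0.14, SE 0.057, adjusted p = 0.0473).

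The siRNA1 call of PDIA4 was near the threshold and was lost without control replicates 1 or 2 or siRNA1 replicates 2 or 3 (adjusted p = 0.0949, 0.0827, 0.11 and 0.0782) and under 6 other settings of the processing. The isomerases P4HB, PDIA3 and PDIA6, TXNDC11 (a thioredoxin-domain membrane protein), ERP44 (which returns ERO1 oxidases to the ER) and CRELD2 (a secreted isomerase-like protein) rose with siRNA2, at 0.46, 0.53, 0.37, 0.64, 0.35 and 0.77 in that order. With siRNA1, CRELD2 rose (0.28, adjusted p = 0.00926; adjusted p = 0.0517 without control replicate 2 and 0.066 without siRNA1 replicate 1), and the other 5 lay between -0.13 and -0.05 and did not pass. ERO1A, the main ERO1 oxidase of most cells, fell with siRNA1 (-0.52, adjusted p = 1.62e-06) and did not pass with siRNA2 (-0.16, adjusted p = 0.0586), where it passed without control replicate 3 (adjusted p = 0.0241). ERP29, a chaperone of the same fold without the active-site cysteine pair, fell with siRNA1 (-0.19, adjusted p = 0.0124; adjusted p = 0.0565 without siRNA1 replicate 2) and had -0.03 (adjusted p = 0.714) with siRNA2. Its difference between the siRNAs (0.16, adjusted p = 0.0264) was lost without siRNA2 replicates 1 or 2 or siRNA1 replicate 2 (adjusted p = 0.0721, 0.0647 and 0.117). The pseudogene PDIA3P1 took 2606 counts against 64683 for PDIA3. SNN overlaps TXNDC11 and ALG12 overlaps CRELD2, each on the opposite strand, with 30.7% and 49.1% as many counts.

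FKBP14, a prolyl isomerase of collagen folding, was the 1 isomerase of proline bonds on the list. It had 1.98, 1.81 and 2.01 FPKM with siRNA2, 2.32, 2.96 and 2.18 FPKM with siRNA1, and 1.77, 1.48 and 1.35 FPKM with control siRNA. It was above control in every siRNA library, at 0.34 (SE 0.135, adjusted p = 0.0375) with siRNA2 and 0.67 (SE 0.132, adjusted p = 0.000146) with siRNA1. The siRNA2 call was lost without control replicates 2 or 3 or siRNA2 replicates 1 or 3 (adjusted p = 0.0968, 0.153, 0.102 and 0.0919). Its lower level with siRNA2 than with siRNA1 (-0.34, SE 0.126, adjusted p = 0.0231) was lost without siRNA2 replicate 2 or siRNA1 replicate 2 (adjusted p = 0.0968 and 0.186). FKBP14-AS1 overlaps it on the opposite strand with 13.2% as many counts.

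In ERAD, mannose-trimming EDEM proteins and the lectin OS9 select misfolded glycoproteins, and the SEL1L and SYVN1 (HRD1) ligase complex with HERPUD1 and the Derlins passes them to the cytosol. Of the 9 tested genes, 8 rose and 0 fell with siRNA2 (EDEM2 did not pass), and 2 rose and 5 fell with siRNA1. Among all tested genes 27.2% rose and 28.9% fell with siRNA2, and 25.1% rose and 25.3% fell with siRNA1, so the 2 that rose with siRNA1 (22.2%) are near the share of all genes. HERPUD1, which gathers the ligase complex and whose promoter holds the ERSE-II printed above, had 20.5, 18.7 and 18.1 FPKM with siRNA2, 8.78, 9.44 and 8.85 FPKM with siRNA1, and 7.03, 7.51 and 7.25 FPKM with control siRNA. The 3 groups did not overlap, and the rise was 1.40 (SE 0.073, adjusted p = 4.35e-14) with siRNA2 and 0.29 (SE 0.075, adjusted p = 0.00263) with siRNA1. EDEM3 had 10.8, 11.5 and 11 FPKM with siRNA2, 1.88, 2.14 and 1.74 FPKM with siRNA1, and 7.85, 7.25 and 6.01 FPKM with control siRNA. It was the second most reduced ER gene with siRNA1 (-1.90, SE 0.095, adjusted p = 2.22e-14) and rose with siRNA2 (0.66, SE 0.083, adjusted p = 2.7e-07), a difference of 2.56 (SE 0.094, adjusted p = 2.35e-17) between the siRNAs. EDEM1 had 17.4, 17.3 and 17.2 FPKM with siRNA2, 8.71, 10.6 and 8.85 FPKM with siRNA1, and 14.2, 12.7 and 12.2 FPKM with control siRNA. The siRNA2 libraries lay above the control libraries (0.41, SE 0.072, adjusted p = 3.41e-05) and the siRNA1 libraries below them (-0.50, SE 0.074, adjusted p = 4.51e-06). DERL2 had 7.99, 6.74 and 8.40 FPKM with siRNA2, 3.37, 3.44 and 3.27 FPKM with siRNA1, and 5.53, 5.51 and 6.26 FPKM with control siRNA. It followed the order of EDEM1, at 0.42 (SE 0.086, adjusted p = 0.000219) with siRNA2 and -0.81 (SE 0.092, adjusted p = 7.61e-08) with siRNA1, and MIS12 overlaps it on the opposite strand with 76.1% as many counts. SEL1L had 15.7, 15.2 and 16 FPKM with siRNA2, 8.33, 9.47 and 8.0 FPKM with siRNA1, and 10.3, 10.4 and 8.77 FPKM with control siRNA. It rose with siRNA2 (0.67, SE 0.071, adjusted p = 1.68e-08) and fell with siRNA1 (-0.22, SE 0.073, adjusted p = 0.0137), where the groups overlapped and the call was lost without control replicates 1 or 2 or siRNA1 replicate 3 (adjusted p = 0.053, 0.0829 and 0.0917).

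SYVN1, the ubiquitin ligase of the complex, rose with siRNA2 (0.49) and with siRNA1 (0.28), but FAU on the same strand and MRPL49 on the opposite strand overlap it with 356% and 134% as many counts. EDEM2 had 0.21 (adjusted p = 0.114) with siRNA2 and fell with siRNA1 (-0.71, adjusted p = 2.59e-05). OS9 rose with siRNA2 (0.23, adjusted p = 0.00285) and had 0.10 (adjusted p = 0.195) with siRNA1. DERL1 rose with siRNA2 (0.19, adjusted p = 0.0211), a call lost without control replicates 2 or 3 or siRNA2 replicates 1 or 2 (adjusted p = 0.0553, 0.0793, 0.0651 and 0.0847), and had 0.05 (adjusted p = 0.552) with siRNA1. Between the siRNAs DERL1 had 0.14 (adjusted p = 0.0864), which passed without siRNA1 replicate 2 (adjusted p = 0.0466), and TBC1D31 overlaps it on the opposite strand with 31.2% as many counts.

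SEC61A1 forms the channel through which new chains enter the ER, and SEC61B is a small subunit of it. SEC61A1 had 141, 138 and 139 FPKM with siRNA2, 58.0, 57.9 and 59.3 FPKM with siRNA1, and 114, 114 and 111 FPKM with control siRNA. The siRNA1 libraries lay below the control libraries and the siRNA2 libraries above them, with log2 fold changes of 0.30 (SE 0.05, adjusted p = 1.48e-05) with siRNA2, -0.98 (SE 0.051, adjusted p = 4.59e-14) for siRNA1, and 1.28 (SE 0.051, adjusted p = 1.23e-16) between them. SEC61B did not follow its partner with siRNA1: it rose by 0.22 with siRNA2 (adjusted p = 0.00614) and by 0.29 with siRNA1 (adjusted p = 0.0007). MGLL and RUVBL1 overlap SEC61A1 on the opposite strand with 30.2% and 26.3% as many counts.

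By branch of the response, genes that ATF6 is known to raise and genes that XBP1 is known to raise were counted apart. Of 11 ATF6 targets (HSPA5, HSP90B1, PDIA4, HYOU1, CALR, SEL1L, HERPUD1, CRELD2, SDF2L1, MANF and XBP1), 11 rose with siRNA2 (median log2 fold change 0.60; 27.2% of all tested genes rose), and 7 rose and 2 fell with siRNA1 (median 0.25), which is 63.6% and 18.2%, against 25.1% and 25.3% of all tested genes. Of the 6 tested XBP1 targets (DNAJB9, DNAJB11, DNAJC3, EDEM1, PDIA6 and DERL2), 5 rose and 1 fell with siRNA2 (median 0.41), and 1 rose and 3 fell with siRNA1 (median -0.24), numbers too small to set against those shares. Summed FPKM of the ATF6 targets was 0.631% ± 0.0192 of the library with siRNA2, 0.395% ± 0.00153 with siRNA1 and 0.345% ± 0.00551 with control siRNA. That of the XBP1 targets was 0.0641% ± 0.000954 with siRNA2, 0.0421% ± 0.00106 with siRNA1 and 0.0469% ± 0.000833 with control siRNA (SD, n = 3 each). HSPA5 and CALR weigh most in the sum of the ATF6 targets. Many targets respond to both factors, so the lists are not separate readouts.

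Split by promoter, the 11 genes with an ERSE or ERSE-II all rose with siRNA2 (median 0.60), and with siRNA1 8 rose, 1 (CANX) fell and 2 did not pass (median 0.28). Of the 27 other genes that have a window, 18 rose, 4 fell and 5 did not pass with siRNA2 (median 0.31), and 4 rose, 15 fell and 8 did not pass with siRNA1 (median -0.19). The 5 genes with a UPRE core included 3 that rose and 1 that fell with siRNA2, and 0 that rose and 3 that fell with siRNA1 (TXNDC5, SEC61A1 and DNAJC10). DNAJB9, with the largest rise, had none of the 3 elements in its window. Beside these counts, 27.2% of all tested genes rose and 28.9% fell with siRNA2, and 25.1% rose and 25.3% fell with siRNA1. HSPA5, HSP90B1, CALR, HYOU1, HERPUD1, CRELD2, SDF2L1 and XBP1 hold an ERSE or ERSE-II and are also among the ATF6 targets above. The counts by branch and by promoter are therefore not separate results. The split was not tested.

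**Figure D4:**
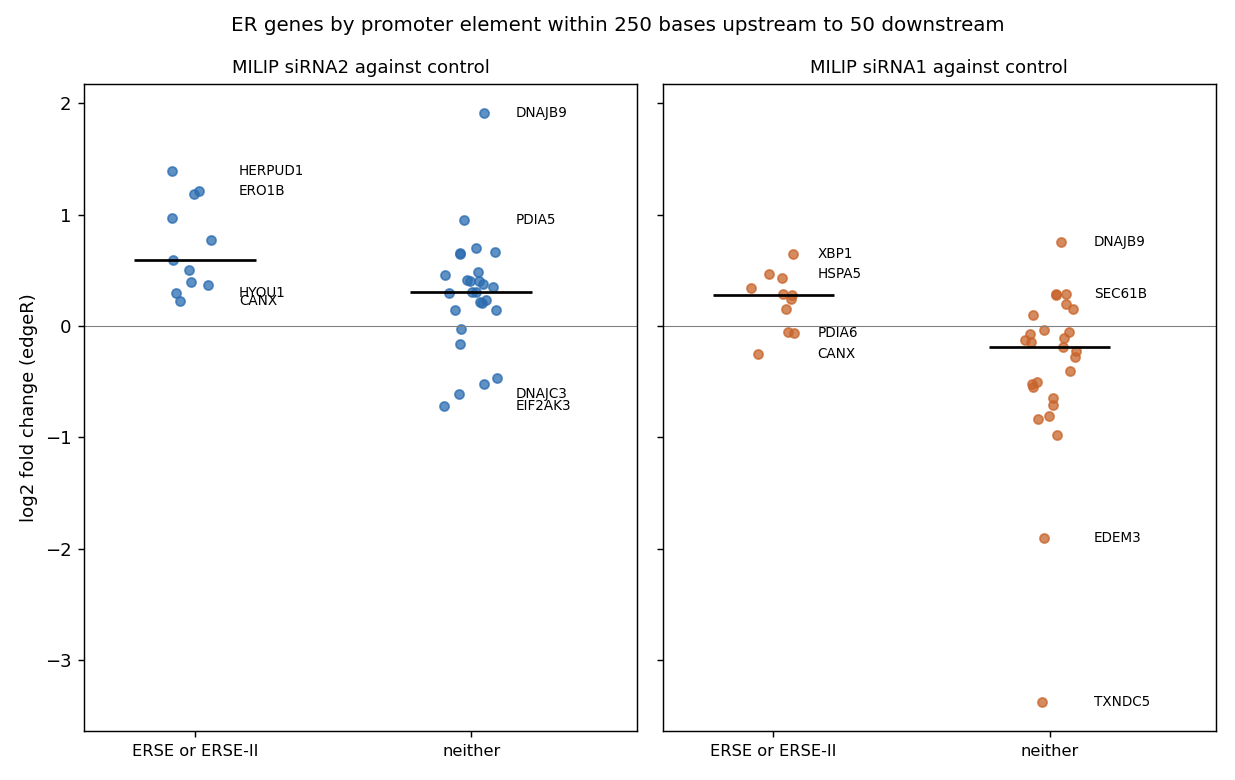
Log2 fold change (edgeR) with siRNA2 (left) and siRNA1 (right) against control for the 11 ER genes with an exact ERSE or ERSE-II and the 27 with neither in the promoter window; each point is a gene, black bars are medians, and the 2 highest and 2 lowest genes of each set are named. With siRNA2 the medians are 0.60 and 0.31, and with siRNA1 they are 0.28 and -0.19.

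The 3′ UTRs were also searched for the word of 7 bases most linked to lower transcripts with each siRNA, since short stretches in 3′ UTRs are where the seed of a small RNA can pair. The siRNA1 word, AATTCCA, occurred in 2312 of 12594 genes with an annotated 3′ UTR (18.4%), and the siRNA2 word, GACCCTA, in 754 (5.99%). Both words also occur in MILIP, but how often a word of 7 bases would do so by chance was not tested. Each word was chosen by these very fold changes, which in part fixes the lower median of its genes. Of the ER genes tested, 8 held the siRNA1 word, of which 5 fell (TXNDC5, EDEM3, DNAJC10, DERL2 and ERN1), 1 rose (ERO1B) and 2 did not pass (PDIA3 and ERP44) with siRNA1, with a median of -0.68. Of the 33 without it, 11 fell, 12 rose and 10 did not pass (median -0.04). TXNDC5 and ERN1 lack the siRNA2 word but also fell with siRNA2 (-0.52 and -0.46). With siRNA2, EDEM3 and DERL2 rose (0.66 and 0.42) and DNAJC10 did not pass (0.15). Among all tested genes, 25.3% fell and 25.1% rose with siRNA1. Over all genes with an annotated 3′ UTR, the median with siRNA1 was -0.21 with the word and 0.04 without it. The genes with the word had longer 3′ UTRs, with a median of 3433 bases against 995 bases. SEC61A1, EDEM1, HSPA13 and EDEM2, which fell with siRNA1, hold neither word. The siRNA2 word stood in DNAJC3, which fell with siRNA2, and in ERP44, which rose (0.35, adjusted p = 0.000414). DNAJC3 lacks the siRNA1 word but also fell with siRNA1 (-0.41, adjusted p = 0.000651). Among all tested genes, 28.9% fell and 27.2% rose with siRNA2. No siRNA sequence was used here, and what part these words have in the fold changes was not tested.

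The stretches around the words in the genes that fell are printed in the direction of the gene (GRCh38), with the word in capitals, 1 for each gene.
TXNDC5, chr6:7882325-7882351, minus strand: aggcatggaaAATTCCAcgaggctcat
EDEM3, chr1:184691639-184691665, minus strand: gttcattaaaAATTCCAaaggcattag
DERL2, chr17:5474296-5474322, minus strand: aataaaacggAATTCCAtttttctctc
DNAJC10, chr2:182778447-182778473, plus strand: gaatggtaaaAATTCCAatcagtcaaa
ERN1, chr17:64040022-64040048, minus strand: ggtgagccgaAATTCCAccctcccagg
DNAJC3, chr13:95791085-95791111, plus strand: cttgttccggGACCCTAatgaaaaaaa

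Other genes of the pathway, from lists that do not include the 42, were counted by the same test. Their counts are to be read against the shares of all tested genes, 27.2% that rose and 28.9% that fell with siRNA2, and 25.1% and 25.3% with siRNA1. In the PERK and ATF4 branch, 7 of 11 genes rose and 2 fell with siRNA2 (median 0.42), and 4 rose and 3 fell with siRNA1 (median 0.18). CHAC1, a glutathione-degrading enzyme induced by ATF4, rose by 1.84 with siRNA2 and 1.6 with siRNA1 on the log2 scale, and ATF3 by 0.83 and 0.65. NUPR1, a stress-induced nuclear protein, rose with siRNA2 (1.59) and had 0.45 (adjusted p = 0.382) with siRNA1. ATF3 and NUPR1 were both low. Mean levels with siRNA2, siRNA1 and control siRNA were 1.04, 0.95 and 0.59 FPKM for ATF3, and 0.34, 0.16 and 0.11 FPKM for NUPR1. The genes that fell, named here after their values were seen, were ATF4 (-0.19) and PPP1R15A (-0.50) with siRNA2, and PPP1R15A (-0.24), TRIB3 (-0.76) and VLDLR (-0.82) with siRNA1. ATF4, the transcription factor of the branch, had 0.01 with siRNA1 (adjusted p = 0.899), while TRIB3 and VLDLR rose with siRNA2 (0.30 and 0.61). The 3 of 11 that fell with siRNA1 (27.3%) are near the share of all genes. Among 12 modulators of the sensors, 7 rose and 2 fell with siRNA2 (median 0.28), and 6 rose and 3 fell with siRNA1 (median 0.18). The ER stress regulator WFS1 rose by 0.28 with siRNA2 and 1.01 with siRNA1, the transcription factor CREB3L1 by 1.04 and 0.23, and EIF2S1, the substrate of PERK, had -0.94 and -0.27, which passed with each.

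Most genes on the lists of N-glycan assembly and glycoprotein quality control fell with siRNA1, where 25.3% of all tested genes fell. With siRNA2 against siRNA1, 28.4% of all tested genes were higher and 32.0% were lower. Of 12 genes of N-glycan assembly and transfer, 8 rose and 2 fell with siRNA2 (median 0.19), and 1 rose and 10 fell with siRNA1 (median -0.26), while 9 were higher and 1 was lower with siRNA2 than with siRNA1. RPN2, a subunit of the oligosaccharyltransferase, had 0.06 with siRNA2 (adjusted p = 0.347) and -1.77 with siRNA1, a difference between the siRNAs of 1.83 (adjusted p = 5.25e-19). Its partner DAD1 rose by 0.56 with siRNA2 and 0.52 with siRNA1, and DPAGT1, the first enzyme of the pathway, had -0.52 and -0.30, which passed with each. Of 10 genes of glycoprotein quality control, 4 rose and 1 fell with siRNA2 (median 0.16), and 0 rose and 7 fell with siRNA1 (median -0.27), while 6 were higher and 1 was lower with siRNA2 than with siRNA1. The lectin MLEC had -1.24 with siRNA2 and -1.06 with siRNA1, both passed, the cargo receptor LMAN1 had 0.13 with siRNA2 (adjusted p = 0.112) and -1.52 with siRNA1, and the mannosidase MAN1B1 rose with siRNA2 (0.55) and had 0.01 (adjusted p = 0.911) with siRNA1. Of 18 genes of translocation and signal peptide removal, 7 rose and 4 fell with siRNA2 (38.9% and 22.2%, against 27.2% and 28.9% of all tested genes; median 0.10), and 5 rose and 3 fell with siRNA1 (27.8% and 16.7%, against 25.1% and 25.3%; median 0.06). These shares stood closer to those of all genes than the shares of the glycan lists with siRNA1 did. Among them were SSR1, a subunit of the translocon-associated complex, at -0.49 and -1.34, SSR3 at -0.49 and -0.19, and TRAM1 at 0.52 and 0.25, all passed.

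In ERAD beyond the 9 genes above, 7 of 14 rose and 4 fell with siRNA2 (50% and 28.6%, against 27.2% and 28.9% of all tested genes; median 0.18), and 6 rose and 3 fell with siRNA1 (42.9% and 21.4%, against 25.1% and 25.3%; median 0.10). The shares that fell were near those of all genes. The membrane factor FAF2 had -0.30 with siRNA2 and -1.08 with siRNA1, while the ubiquitin ligases RNF5 (0.42 and 0.68) and RNF139 (0.53 and 0.35) rose with each. Of 14 genes of transport between ER and Golgi, 12 rose and 1 fell with siRNA2 (median 0.36), and 6 rose and 4 fell with siRNA1 (median 0.04). The coat adaptors SEC24D (1.23 with siRNA2 and 0.20 with siRNA1) and SEC24A (0.89 and 0.65) rose, and the cargo receptor TMED10 fell (-0.80 and -0.23). Genes were named by their mean change over both siRNAs, which passes over some that moved in opposite directions. Among these, picked after their values were seen, KDELR3 had 0.66 with siRNA2 and -1.53 with siRNA1, and KDELR2 had 0.54 and -1.01. UBE2J1, on the ERAD list, had 0.235 and -0.91, and all 3 genes passed with each siRNA. Of 12 genes of prolyl isomerases and collagen modification, 6 rose and 0 fell with siRNA2 (median 0.16), and 1 rose and 6 fell with siRNA1 (median -0.14). PPIB, cyclophilin B of the ER, had -0.03 with siRNA2 (adjusted p = 0.754) and -0.73 with siRNA1, PLOD2, a lysyl hydroxylase, rose with siRNA2 (0.69) and had 0.15 with siRNA1 (adjusted p = 0.0707), and FKBP7, a prolyl isomerase, had 0.33 with siRNA2 (adjusted p = 0.115) and rose with siRNA1 (0.67). The median over all tested genes, to be set beside those of these lists, was -0.01 with siRNA2 and 0.00 with siRNA1.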

How the data were processed

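RNA of 9 libraries of MDA-MB-231 cells was measured, 3 for each of MILIP siRNA2, MILIP siRNA1 and control siRNA, grouped by the titles. The table the authors deposited gives a count per gene and library and, beside it, FPKM. Per the submitters' processing notes Trimmomatic 0.30, HISAT2 2.0.1, HTSeq 0.6.1 and DESeq were used. The deposited FPKM equal the count divided by exonic size and library total, within 0.005 FPKM for 100% of values. The deposited exonic sizes served for that check and as the length given for DNAJC10, and the deposited FPKM rest on them. The notes name hg19, but the table's coordinates are GRCh38: all 42 genes overlap the gene of their name and strand in GENCODE release 29. The strand setting of the counting is not stated in any source used here, and shared reads of overlapping genes cannot be told apart.

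Genes of low counts were removed with filterByExpr (count of at least 10, total of at least 15). After TMM scaling the counts were fitted with edgeR 4.0.16 (R 4.3.3) in 1 quasi-likelihood model of the 3 groups. Tests were two-sided, adjusted by Benjamini-Hochberg over all 15345 genes, with calls below 0.05. Adjusted p-values are from this fit, except where a library was left out or another setting is named. Those cases were fitted and adjusted anew. The fit was tested on simulated data. Alternatives were DESeq2 1.42.0, its median-of-ratios scaling, other filters, limma 3.58.1 on log2(FPKM + 1) and log2(FPKM + 0.1), the 2 groups alone, a replicate block and leaving out each library. Libraries of a group differed beyond counting noise (chi-square per gene 2.15 to 8.06), so none was merged. Same-numbered libraries did not deviate together (correlations -0.051 to 0.097), so numbers were not used as pairs. Depth limits the genes near 1 FPKM most, and a gene at 0 counts could be present at up to 3 counts.

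The rule that picks the 42 genes goes by symbol alone, but the genes and all lists were chosen with earlier results of these data known. Given by library are the sensors and XBP1, the 4 called genes with the largest rise and fall in each comparison, genes called in opposite directions with the siRNAs, and genes changed 1.5-fold or more one way with both. Of other lists up to 3 called genes with the largest mean log2 fold change over both siRNAs, in either direction, are named. Genes that moved in opposite directions with the siRNAs rank low by that mean. Python 3.11.15 searched promoter windows from RefSeq and 3′ UTRs from GENCODE.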

Additional observations from a re-analysis of the deposited data

How the results depend on the processing

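The counts of ER genes that rose or fell were within 1.5 times those reported under every alternative tried, with the exceptions given here. With siRNA1 the number that rose was 13, and 8 to 12 when 1 library was left out, lowest without control replicate 2. The number lower with siRNA2 than with siRNA1 was 2, and 1 with DESeq2 and 1 to 2 when 1 library was left out. Signs turned for 2 changes that passed under none of the settings: DERL1 with siRNA1 (0.05), from -0.009 to 0.099 when 1 library was left out, and ERP29 with siRNA2 (-0.03), at 0.000 with no filter on low counts, 0.006 with a minimum mean FPKM of 1, and from -0.058 to 0.031 when 1 library was left out. The cause of these was not tested. Over the 41 genes in 3 comparisons and MILIP, single fold changes kept their direction and call in 1655 cases, lost the call in 64 and gained it in 27. With the replicate block, 32 genes rose and 4 fell with siRNA2, 13 rose and 15 fell with siRNA1, and 32 were higher and 3 lower with siRNA2 than with siRNA1. The block ended the siRNA1 call of PDIA4 (adjusted p = 0.051) and gave DNAJC3 a call between the siRNAs (adjusted p = 0.0406). The libraries share only a number, so these are not paired results. Where 2 libraries were left in a group, the fit pooled the spread of all groups.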

Other observations

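Outside the 42 genes, 33 genes hold an exact ERSE or ERSE-II in a promoter window, of which 19 were tested. With siRNA2, 7 of them rose, 6 fell and 6 did not pass (36.8% and 31.6% called higher and lower, against 27.2% and 28.9% of all tested genes; median log2 fold change 0.19). With siRNA1 5 rose, 3 fell and 11 did not pass (26.3% and 15.8%, against 25.1% and 25.3%; median -0.03), so the shares of these 19 genes lay within 10 percentage points of those of all genes. FICD, the enzyme that modifies BiP with AMP, rose with siRNA2 (0.91, adjusted p = 3.51e-09) and with siRNA1 (0.58, adjusted p = 8.31e-06). NUCB1, a calcium-binding Golgi protein, rose with siRNA2 (0.54, adjusted p = 3.94e-08) and had -0.03 (adjusted p = 0.733) with siRNA1. ALG12, a mannosyltransferase of N-glycan assembly that shares its element with CRELD2, had 0.24 (adjusted p = 0.0535) with siRNA2 and fell with siRNA1 (-0.61, adjusted p = 5.64e-05). SERP1, an ER membrane protein induced by stress, fell with siRNA2 (-0.33, adjusted p = 7.35e-05) and with siRNA1 (-0.66, adjusted p = 3.76e-09). SHCBP1 had the lowest value with siRNA2 (-0.86, adjusted p = 1.92e-10) and 0.06 (adjusted p = 0.465) with siRNA1. Rises with siRNA1 larger than that of FICD were seen in CNKSR1 (2.20), SYNPO (1.24), TRIM5 (0.98) and TMEM120A (0.72), which all passed. With siRNA2, TRIM5 (0.65) and TMEM120A (0.66) passed, and CNKSR1 (0.38) and SYNPO (0.25) did not. These genes were named after their values were seen.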
